A study of Homo sapiens with 8 samples.

Results

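The genes described here are 10 regulators of apoptosis of the BCL2 family, 10 of the 19952 gene symbols listed in each library. They were chosen by symbol, with earlier results of these data known. The list holds 5 anti-apoptotic genes (BCL2, BCL2L1, BCL2L2, MCL1 and BCL2A1), 1 effector (BAK1) and 4 BH3-only genes (PMAIP1, BCL2L11, BID and BAD). BCL2 family proteins set whether mitochondria release cytochrome c and start the caspase cascade. The anti-apoptotic proteins hold the pore-forming effectors BAX and BAK1 in check, whereas BH3-only proteins bind the anti-apoptotic members or engage the effectors directly. In melanocytic cells, BCL2 and BCL2A1 are known as targets of MITF, the transcription factor of the melanocyte lineage.

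RNA was sequenced from 92.1 and MEL290, established uveal melanoma (UVM) cell lines, in 4 groups of 2 libraries. In 92.1, cells with a short hairpin RNA against APOBEC3B (A3B, a DNA cytidine deaminase) in a lentiviral vector (shA3B) were compared with control cells (shCtrl), described in the study's methods as carrying an empty vector. In MEL290, cells overexpressing full-length A3B from a lentiviral vector (A3B OE) were compared with negative control cells (NC). The study's methods describe puromycin selection after lentiviral infection, without setting the lines apart. Values are FPKM, the number of fragments scaled by the length of the transcript and by the mapped fragments of the library, and nothing in the labels says whether the 2 libraries of a group came from separate cultures, so p-values measure only the spread between libraries, which may be technical. Depth, estimated roughly from the low values of genes with a single transcript, lay between 25300000 and 32200000 fragments in 92.1 and between 17500000 and 27800000 in MEL290.

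The target gene followed the labels. APOBEC3B stood at 35.9 and 32.3 FPKM in shCtrl, against 1.98 and 2.37 FPKM in shA3B. It was at 2.67 and 2.19 FPKM in NC and at 28.4 and 27.5 FPKM in A3B OE. The markers of the labelled tumour type differed between the lines: the summed FPKM of 8 melanocyte genes was between 7116 and 8713 in 92.1 and between 15.2 and 20.7 in MEL290, where MITF, at 13.7 to 19.6 FPKM, made up most of it. SOX10 and TYR, markers of the melanocyte lineage, were listed at 0 in both NC libraries. Of the 7 fibroblast genes, the summed FPKM was between 6.23 and 8.59 in 92.1 and between 44.1 and 60.9 in MEL290. Its genes did not move together: COL1A1 and PDGFRB were higher in MEL290, LUM was lower, PDGFRA, not tested, was at 0.418 to 0.988 FPKM in 92.1 and at most 0.13 FPKM in MEL290, and COL1A2, COL3A1 and DCN were at or under 0.26 FPKM in every library. The part of these markers in the differences between the lines described next was not tested. In bulk RNA, fewer cells of a type and less RNA per cell cannot be told apart.

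The control cells of the lines held different sets of anti-apoptotic transcripts. BCL2 was well expressed in 92.1 and very low in MEL290, BCL2L1 was 4.36-fold higher in MEL290, MCL1 was high in both, and BCL2A1 was close to 0 throughout. The effector BAK1 and the BH3-only genes BID and BAD were lower in MEL290, and BCL2L11 was higher. The differences of the members tested spanned -3.81 to 2.08 in log2(FPKM + 1) between the control cells. They spanned -0.28 to 0.098 with A3B depletion and -0.40 to 0.14 with A3B overexpression, where BCL2 was not tested. All genes tested spanned -11.3 to 11.7 between the control cells. Their span was -3.47 to 1.60 with depletion and -2.94 to 3.68 with overexpression. In 92.1, 0 of the 9 members tested were called, beside 0.00862% of all genes tested. In MEL290, 1 of the 8 tested, BCL2L2, was called, beside 17.8% of all genes tested.

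**Figure D1:**
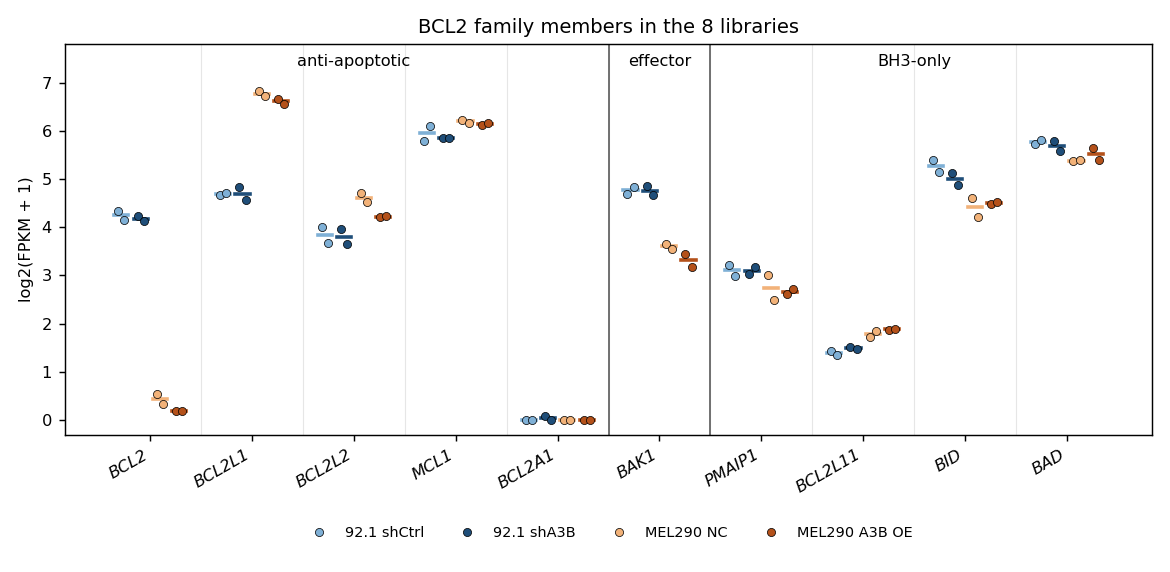
Level of each member as log2(FPKM + 1) in the 8 libraries, with 1 point per library, a bar at the mean of each group of 2, and colours for the 4 groups. BCL2 and BCL2L1 separate the lines in opposite directions, BCL2A1 lies at or near 0 in all 8 libraries, and within each line the points of the 2 groups lie close together.

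BCL2, the founding anti-apoptotic member, lies at chr18:63123346-63320128 (minus strand, GRCh38). Its level was 19.1 and 16.8 FPKM in shCtrl, 17.7 and 16.4 FPKM in shA3B, 0.447 and 0.267 FPKM in NC, and 0.136 and 0.141 FPKM in A3B OE. All 4 libraries of 92.1 stood above all 4 of MEL290, and the 2 groups of 92.1 overlapped. The mean was 50.3-fold lower in NC than in shCtrl. On the scale of log2(FPKM + 1), on which all differences below are given and which understates changes of genes with low FPKM, the difference NC minus shCtrl was -3.81 (standard error 0.13, adjusted p = 4.8e-08, limma). By the rough depth estimate, the 4 values in MEL290 rest on about 21.5 to 52.2 fragments each, against 2840 or more in each library of 92.1. The 2 A3B OE libraries lay below the 2 NC libraries, but BCL2 did not reach the minimum of 1 FPKM in 2 libraries of MEL290 and was not tested there. In a fit without that minimum its difference was -0.25 (unadjusted p = 0.0388, adjusted p = 0.167, limma), so it was not called.

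BCL2L1 encodes the anti-apoptotic BCL-XL and, by alternative splicing, a pro-apoptotic short form that values per gene cannot separate. The gene lies at chr20:31664452-31723989 (minus strand). It stood at 24.5 and 25 FPKM in shCtrl, 27.6 and 22.5 FPKM in shA3B, 112 and 104 FPKM in NC, and 101 and 93.5 FPKM in A3B OE. The order of the lines was therefore the reverse of that for BCL2, with every MEL290 library above every 92.1 library. Within MEL290 the order was the same for both genes, with A3B OE below NC. NC minus shCtrl was 2.08 (standard error 0.11, adjusted p = 6.8e-07, limma).

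MCL1, a short-lived anti-apoptotic protein, lies at chr1:150560895-150579738 (minus strand). It was the highest of the anti-apoptotic members in 92.1, at 54.5 and 68.0 FPKM in shCtrl and 56.4 and 56.8 FPKM in shA3B. In MEL290 it was second to BCL2L1, at 73.5 and 70.9 FPKM in NC and 68.6 and 70.7 FPKM in A3B OE. All MEL290 libraries lay above all 92.1 libraries, by a narrow margin. The difference between the control cells, 0.24 (standard error 0.11, adjusted p = 0.0774, limma), was not called, and it was called without shCtrl replicate 2, the higher of its group, at 0.40 (adjusted p = 0.0068).

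BCL2L2 encodes the anti-apoptotic BCL-w and lies at chr14:23298790-23311751 (plus strand). Its level was 15.0 and 11.7 FPKM in shCtrl, 14.6 and 11.5 FPKM in shA3B, 25.2 and 21.9 FPKM in NC, and 17.4 and 17.7 FPKM in A3B OE. The 2 groups of 92.1 overlapped, and the MEL290 groups did not overlap with each other or with 92.1. NC minus shCtrl was 0.78 (standard error 0.15, adjusted p = 0.0017, limma). The gene shares its exons with the readthrough gene BCL2L2-PABPN1, listed at 6.74 and 8.01 FPKM in shCtrl, 6.59 and 5.39 FPKM in shA3B, 16.9 and 12.6 FPKM in NC, and 8.33 and 7.16 FPKM in A3B OE. How Cufflinks divided shared reads between them is not known, so both genes' values are uncertain.

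BCL2A1, an anti-apoptotic gene known as an NF-kappaB and MITF target, lies at chr15:79960892-79971196 (minus strand). It was listed at 0 in 7 of the 8 libraries and at 0.067 FPKM in shA3B replicate 1, which corresponds to about 1.07 fragments. It was below the minimum of 1 FPKM in every library and was not tested in any comparison, so no difference between groups was assessed. MITF itself was at 67.0 to 81.4 FPKM in 92.1.

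Summed over the 5 genes, anti-apoptotic FPKM was 117 ± 5.87 (SD, n = 2) in shCtrl, 112 ± 6.44 in shA3B, 204 ± 9.31 in NC and 184 ± 3.38 in A3B OE. FPKM is per length, so shares of such a sum can be set side by side. MCL1 made up 52.1% ± 5.5 (SD, n = 2) of it in shCtrl and 35.4% ± 0.740 in NC. BCL2L1 made up 21.1% ± 0.762 in shCtrl and 52.9% ± 0.0977 in NC. BCL2 held 15.4% ± 2.18 in shCtrl and 0.174% ± 0.0543 in NC, whereas BCL2L2 held 11.5% in both. The composition thus shifted between the lines from a mixture led by MCL1 to one led by BCL2L1, and the ratio of BCL2L1 to MCL1 FPKM went from 0.409 ± 0.0578 in shCtrl to 1.5 ± 0.0340 in NC. Within each line it moved by little: the ratio was 0.443 ± 0.0655 in shA3B and 1.39 ± 0.103 in A3B OE. These sums are a description and were not tested.

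**Figure D2:**
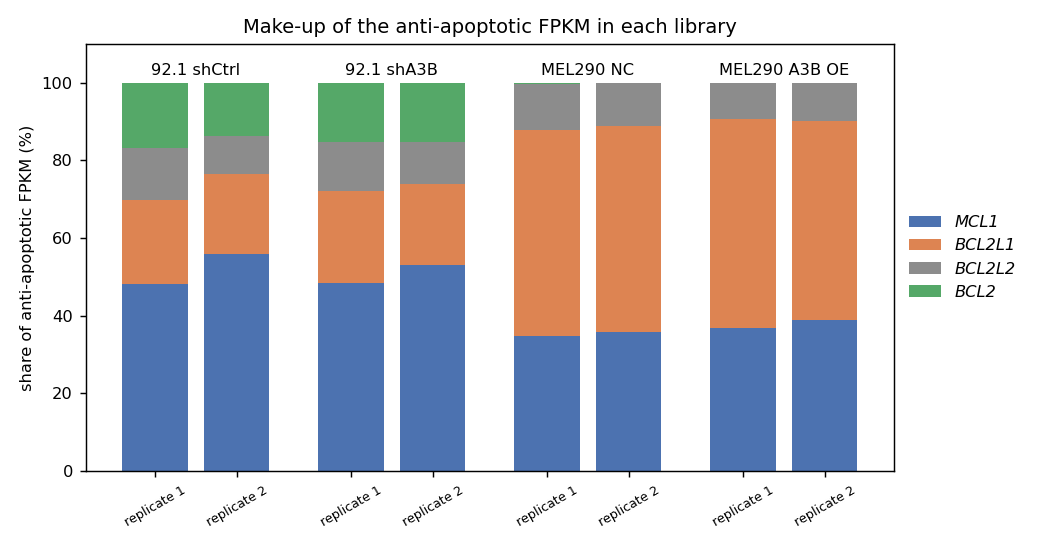
Share of the summed anti-apoptotic FPKM (percent) held by MCL1, BCL2L1, BCL2L2 and BCL2 in each library, 1 bar per library; BCL2A1, at most 0.0575%, is left out. MCL1 holds the largest share in all 4 libraries of 92.1 and BCL2L1 in all 4 of MEL290, and the BCL2 segment is visible only in 92.1.

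BAK1, the effector on the list, forms pores in the outer mitochondrial membrane and lies at chr6:33572547-33580293 (minus strand). It was at 24.8 and 27.6 FPKM in shCtrl, 27.9 and 24.3 FPKM in shA3B, 11.6 and 10.7 FPKM in NC, and 9.93 and 8.05 FPKM in A3B OE. All 92.1 libraries lay above all MEL290 libraries. The mean was 2.35-fold lower in NC than in shCtrl, a difference of -1.16 (standard error 0.13, adjusted p = 6.3e-05, limma). BAX, the other main effector, is not a member but sets the scale: it was at 94.9 and 133 FPKM in shCtrl, 108 and 119 FPKM in shA3B, 140 and 140 FPKM in NC, and 173 and 145 FPKM in A3B OE, several-fold above BAK1 in every library. BAX did not pass the test between the control cells (0.32, standard error 0.16, adjusted p = 0.0991, limma).

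Among the BH3-only members, BAD and BID were the most abundant and BCL2L11 the least. BAD, which binds BCL2 and BCL-XL and is held inactive by phosphorylation, lies at chr11:64269830-64284704 (minus strand). It stood at 52.1 and 54.9 FPKM in shCtrl, 54.5 and 46.6 FPKM in shA3B, 40.3 and 41.1 FPKM in NC, and 49.0 and 41.3 FPKM in A3B OE. The NC libraries were the lowest. The shA3B libraries overlapped with those of shCtrl and of A3B OE, and both shCtrl libraries lay above both A3B OE libraries. NC minus shCtrl was -0.39 (standard error 0.12, adjusted p = 0.015, limma), and this call was lost when shCtrl replicate 2 (-0.35, adjusted p = 0.0678), NC replicate 1 (-0.37, adjusted p = 0.0679) or NC replicate 2 (-0.40, adjusted p = 0.0552) was left out.

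BID, which caspase-8 cleaves to join the death receptor and mitochondrial routes, lies at chr22:17734138-17774770 (minus strand). Its level was 41.2 and 34.6 FPKM in shCtrl, 33.9 and 28.3 FPKM in shA3B, 23.5 and 17.5 FPKM in NC, and 21.3 and 21.8 FPKM in A3B OE. The 92.1 libraries were all above the MEL290 libraries, with a mean 1.85-fold lower in NC than in shCtrl and a difference of -0.86 (standard error 0.16, adjusted p = 0.0011, limma). BID was also the member with the largest difference in 92.1, where both shA3B libraries were lower than both shCtrl libraries (-0.28, standard error 0.15, unadjusted p = 0.094, adjusted p = 0.999, limma), which did not pass the test.

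BCL2L11 encodes BIM, a BH3-only protein that binds all anti-apoptotic members, and lies at chr2:111119378-111168444 (plus strand). It was low in every library, at 1.69 and 1.56 FPKM in shCtrl, 1.85 and 1.76 FPKM in shA3B, 2.32 and 2.59 FPKM in NC, and 2.65 and 2.71 FPKM in A3B OE. No 2 groups overlapped, and the order ran from shCtrl through shA3B and NC to A3B OE. NC minus shCtrl was 0.40 (standard error 0.12, adjusted p = 0.0135, limma) and lost its call without NC replicate 2 (0.34, adjusted p = 0.0686). Within each line the step between groups was not called (adjusted p = 0.999 in 92.1 and 0.689 in MEL290, limma).

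PMAIP1 encodes NOXA, a p53-induced BH3-only protein that mainly binds MCL1, and lies at chr18:59899996-59904305 (plus strand). It was at 8.32 and 6.97 FPKM in shCtrl, 7.12 and 7.99 FPKM in shA3B, 7.01 and 4.62 FPKM in NC, and 5.15 and 5.56 FPKM in A3B OE. The shCtrl and NC libraries overlapped, since NC replicate 1 was above shCtrl replicate 2. The difference between the control cells was -0.36 (standard error 0.18, adjusted p = 0.0982, limma) and was called without NC replicate 1 (-0.62, adjusted p = 0.0136).

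Between the control cells, then, 3 of the 9 members tested were called higher in MEL290 and 4 lower. Of all 12697 genes tested, 34.8% were called higher and 40.1% lower, so a call in this comparison is common and the members' share is near that of all genes. Both NC libraries lay above both shCtrl libraries for 4 of the 9 members and below them for 4. Over all 12697 genes tested this held for 5165 and 5878, so such a separation is common too. The median difference of the members was -0.36, beside -0.075 over all genes tested. BCL2 and BCL2L1 differed by more than any other member. Cell line and control construct changed together here and cannot be told apart, and the files of the lines name their gene column differently; whether both lines were processed together is not given in the sources used here. These control libraries are also those of the comparisons within the lines.

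**Figure D3:**
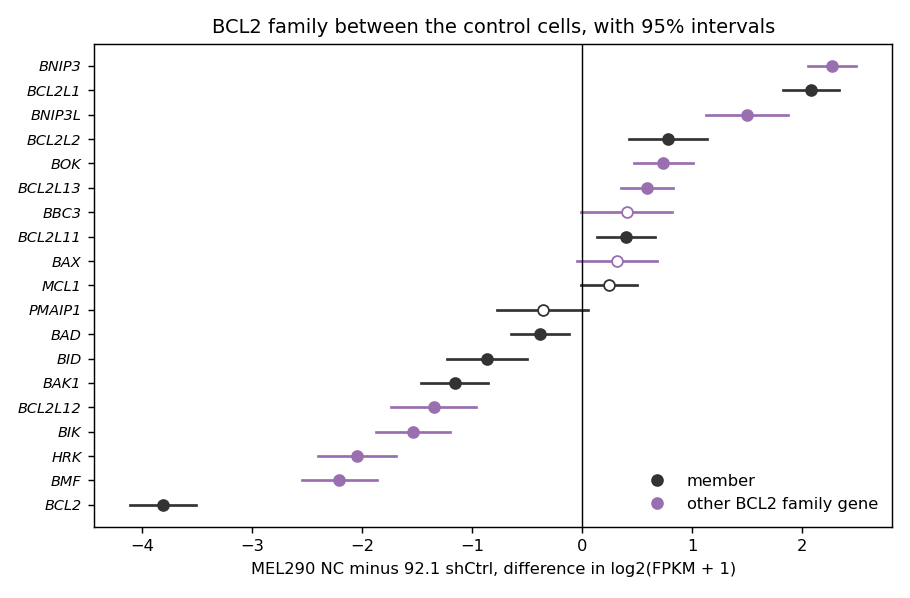
Difference in log2(FPKM + 1) between NC and shCtrl cells for the 9 members tested (black) and 10 other BCL2 family genes (purple), with 95% intervals from limma; filled points were called and open points were not. BCL2 is the lowest at -3.81, BCL2L1 the highest member at 2.08, and the intervals of MCL1, PMAIP1, BAX and BBC3 include 0.

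With A3B depletion in 92.1, 0 of 9 members were called, and 0 had an unadjusted p under 0.05 (limma). Over all 11605 genes tested, 0.00862% were called, which was APOBEC3B alone. The members' differences lay between -0.28 for BID and 0.098 for BCL2L11, with a median of -0.032. For BCL2, shA3B minus shCtrl was -0.067 with a 95% interval of -0.38 to 0.25, for BCL2L1 it was 0.010 (-0.31 to 0.33), and for MCL1 it was -0.10 (-0.42 to 0.21). These intervals are not adjusted for the number of genes tested and are not limits of detection. With 2 libraries per group, even the largest rise of any gene tested, 1.60, was not called, so changes beyond these intervals could also go uncalled. The libraries of the 2 groups did not overlap for 2 of the 9 members, BID (lower) and BCL2L11 (higher), where 28.6% of all genes tested in 92.1 did not overlap.

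With A3B overexpression in MEL290, BCL2L2 was lower (-0.40, standard error 0.10, adjusted p = 0.0462, limma), and the other 7 members tested were not called. Over all 11611 genes tested, 17.8% were called, 10.3% higher and 7.49% lower, so 1 call among 8 members is no more than the share of all genes. The mean of BCL2L2 was 1.34-fold lower in A3B OE, and the readthrough gene BCL2L2-PABPN1 was lower in both A3B OE libraries too. This call stood close to the threshold: it was lost without NC replicate 1 (-0.31, adjusted p = 0.201), without A3B OE replicate 1 (-0.39, adjusted p = 0.14) and without A3B OE replicate 2 (-0.41, adjusted p = 0.135). It was also lost in 4 other fits (adjusted p between 0.069 and 0.126).

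The remaining members in MEL290 lay between -0.29 for BAK1 and 0.14 for BAD, and the median over the 8 was -0.065, beside 0.00412 over all genes. For BCL2L1 the difference A3B OE minus NC was -0.15 with a 95% interval of -0.34 to 0.034, and for MCL1 it was -0.051 (-0.22 to 0.12). For BAK1 the interval ran from -0.62 to 0.035 and for BID from -0.27 to 0.44. The libraries of the 2 groups did not overlap for 6 of the 8 members (BCL2L1, BCL2L2, MCL1 and BAK1 lower, BCL2L11 and BAD higher), where 61.3% of all genes tested in MEL290 did not overlap. For a gene taken alone, 0.33 is the smallest two-sided p that an exact permutation of 2 against 2 libraries allows.

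**Figure D4:**
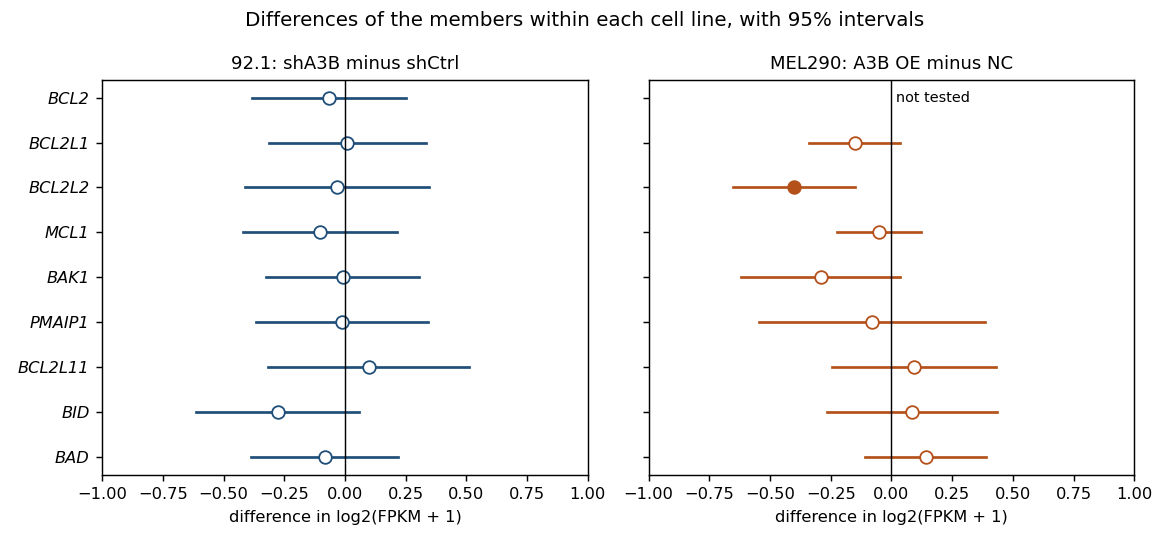
Difference in log2(FPKM + 1) of each member with A3B depletion in 92.1 (left) and A3B overexpression in MEL290 (right), with 95% intervals from limma; the filled point was called and open points were not. All 9 intervals in 92.1 include 0, and in MEL290 only the interval of BCL2L2 (-0.65 to -0.15) does not; BCL2 was not tested in MEL290 and BCL2A1 in neither line.

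A fit over all 8 libraries tested the difference of effects, (A3B OE minus NC) minus (shA3B minus shCtrl). Because A3B went up in the first term and down in the second, changes of opposite sign add up. APOBEC3B itself gave 6.55 (limma). The cell line, the kind of construct and the direction of the A3B change varied together. Whether A3B acts differently in the lines was therefore not tested. Of the 9 members tested, 0 were called and 0 had an unadjusted p under 0.05 (limma), where 4.4% of the 12697 genes tested were called. The differences lay between -0.37 for BCL2L2 (95% interval -0.87 to 0.13) and 0.36 for BID (-0.15 to 0.88). BCL2L2, called in MEL290 and not in 92.1, was therefore not shown to differ in effect between the lines.

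Summed BH3-only FPKM was 101 ± 3.78 (SD, n = 2) in shCtrl, 91.0 ± 9.02 in shA3B, 69.5 ± 5.19 in NC and 74.7 ± 4.77 in A3B OE. BAD held 53.2% ± 3.95 of it in shCtrl and 58.8% ± 5.12 in NC, and BID held 37.6% ± 3.25 and 29.4% ± 3.86. PMAIP1 and BCL2L11 made up the small rest. The ratio of pro-apoptotic FPKM (BAK1 and the BH3-only members) to anti-apoptotic FPKM was 1.08 ± 0.0694 in shCtrl, 1.05 ± 0.0430 in shA3B, 0.395 ± 0.0104 in NC and 0.454 ± 0.0247 in A3B OE. The 92.1 groups overlapped in this ratio and the MEL290 groups did not. Among all single genes tested, 28.6% in 92.1 and 61.3% in MEL290 did not overlap. The ratio is of transcripts on this list only and says nothing of the proteins or of the phosphorylation and cleavage that govern BAD and BID.

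A list of 13 other BCL2 family genes was held besides the members. Of the 8 tested in MEL290, 3 were called higher with A3B overexpression and 0 lower, and 5 were not called, where 10.3% of all genes were called higher and 7.49% lower. The median over the 8 was 0.22. In 92.1, 0 of 10 were called, beside 0.00862% of all genes, and 0 had an unadjusted p under 0.05 (limma).

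BMF, a BH3-only gene whose protein binds the anti-apoptotic members, was at 18.8 and 17.9 FPKM in shCtrl, 17.5 and 14.0 FPKM in shA3B, 2.80 and 3.61 FPKM in NC, and 9.30 and 10.5 FPKM in A3B OE. The A3B OE libraries stood between those of NC and 92.1 and overlapped with neither. The mean rose 3.09-fold with A3B overexpression (1.38, standard error 0.15, adjusted p = 0.0042, limma), and BMF was 5.72-fold lower in NC than in shCtrl. BNIP3, a mitophagy receptor with a BH3-like domain, was at 106 and 101 FPKM in NC and 147 and 148 FPKM in A3B OE (0.51, standard error 0.066, adjusted p = 0.0065, limma), beside 19.5 to 22.4 FPKM in the 4 libraries of 92.1. BCL2L12 was at 17.9 and 24.0 FPKM in NC and 40.0 and 31.7 FPKM in A3B OE (0.75, standard error 0.17, adjusted p = 0.0312, limma), and this call was lost without A3B OE replicate 1 (0.59, adjusted p = 0.138) or A3B OE replicate 2 (0.92, adjusted p = 0.0654).

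Between the control cells, 4 of the 10 other family genes tested were called higher in MEL290 and 4 lower, near the 34.8% and 40.1% of all genes. BNIP3 (2.27) and BNIP3L (1.49) were among those that were higher. BMF (-2.21), HRK (-2.05), BIK (-1.54) and BCL2L12 (-1.35) were lower. HRK and BIK, both BH3-only genes, were at 3.05 and 3.87 FPKM and at 1.81 and 2.0 FPKM in shCtrl, whereas in MEL290 HRK stayed at or under 0.10 FPKM and BIK was listed at 0 in 3 of the 4 libraries. BBC3, which encodes the p53-induced BH3-only protein PUMA, was at 11.8 and 10.7 FPKM in shCtrl and 12.7 and 18.1 FPKM in NC and was not called (0.40, adjusted p = 0.0704, limma).

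Downstream of the mitochondria, the 6 genes of the apoptosome and caspase list had 0 calls in either line with A3B. Over all genes tested, 0.00862% were called in 92.1 and 17.8% in MEL290. Between the control cells 3 of the 6 were called higher in MEL290 and 1 lower, beside 34.8% and 40.1% of all genes. APAF1, the scaffold of the apoptosome, was at 4.56 and 3.33 FPKM in shCtrl and 8.41 and 9.18 FPKM in NC (1.00, adjusted p = 3.4e-04, limma). CASP9, the caspase that it activates, was higher too (0.64, adjusted p = 0.0189). CYCS, which encodes cytochrome c, was at 129 and 150 FPKM in shCtrl and 76.4 and 66.7 FPKM in NC (-0.95, adjusted p = 2.8e-04, limma). The CASP9 call was lost without shCtrl replicate 1 (0.57, adjusted p = 0.0946) or NC replicate 2 (0.50, adjusted p = 0.111).

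Of the inhibitors of apoptosis (IAPs) and their antagonists, 1 of 7 tested was called in MEL290, where 17.8% of all genes were. In 92.1, 0 of 7 were called, beside 0.00862% of all genes. BIRC5, which encodes survivin, a protein of mitosis as well as an IAP, was at 29.4 and 28.9 FPKM in NC and 53.6 and 54.8 FPKM in A3B OE, a 1.86-fold rise (0.87, standard error 0.076, adjusted p = 0.0027, limma). It was at 64.7 and 64.2 FPKM in shCtrl and 62.0 and 60.1 FPKM in shA3B. Between the control cells 4 of 8 were higher in MEL290 and 3 lower, beside 34.8% and 40.1% of all genes. BIRC7, an IAP of melanoma, was the most different (-4.65, adjusted p = 1.8e-06, limma), at 20.1 and 36.9 FPKM in shCtrl and 0.216 and 0.0473 FPKM in NC. The ubiquitin ligases BIRC3 (1.69) and BIRC2 (1.42) and the caspase inhibitor XIAP (0.73) were higher in MEL290, as was BIRC6 (0.55), and BIRC5 (-1.12) was lower.

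In the death receptor arm, which meets the BCL2 family at BID, 1 of 9 genes tested in MEL290 was called higher and 2 lower, beside 10.3% and 7.49% of all genes, and 0 of 7 were called in 92.1, beside 0.00862%. TNFRSF1A, a receptor of tumour necrosis factor, was at 57.0 and 60.6 FPKM in NC and 87.6 and 81.8 FPKM in A3B OE (0.52, standard error 0.078, adjusted p = 0.010, limma). The death receptor FAS was at 19.4 and 19.8 FPKM in NC and 13.1 and 12.2 FPKM in A3B OE (-0.60, standard error 0.098, adjusted p = 0.0124, limma), and its call was lost without A3B OE replicate 2 (-0.55, adjusted p = 0.0618). TNFRSF10B, a receptor of TRAIL, was at 57.1 and 55.7 FPKM in NC and 45.9 and 44 FPKM in A3B OE (-0.32, standard error 0.075, adjusted p = 0.0345, limma), a call lost with any 1 of the 4 libraries left out (adjusted p between 0.0734 and 0.142).

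Between the control cells, 5 of 9 genes of this list were called higher in MEL290 and 1 lower, where 34.8% of all genes were called higher and 40.1% lower, and the other 3 were not called. CASP8, the protease that cleaves BID, was at 0.110 and 0.672 FPKM in shCtrl and 8.74 and 14.9 FPKM in NC (3.19, standard error 0.26, adjusted p = 7.8e-06, limma). FAS was at 2.77 and 1.24 FPKM in shCtrl (2.82, adjusted p = 9.7e-06, limma). CASP10 (1.33), TNFRSF1A (1.20) and TNFRSF10B (0.54) were higher as well, and FADD, the adaptor of the receptors, was lower (-0.63). BID itself, as given before, was lower in the same cells.

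**Figure D5:**
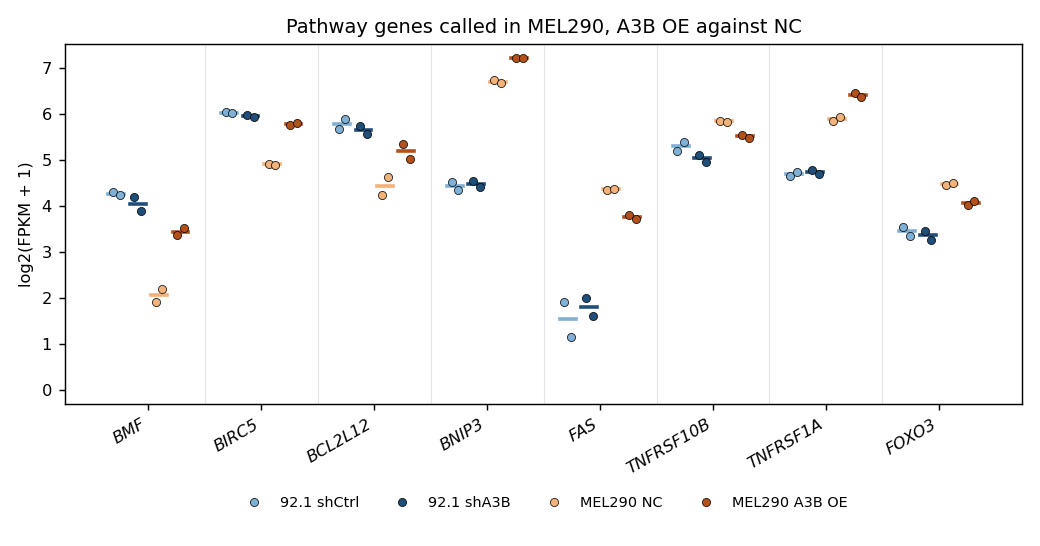
Level as log2(FPKM + 1) in the 8 libraries of the 8 genes of the pathway lists that were called with A3B overexpression in MEL290, with 1 point per library and a bar at the mean of each group. BMF, BIRC5, BCL2L12, BNIP3 and TNFRSF1A lie higher in A3B OE than in NC, and FAS, TNFRSF10B and FOXO3 lie lower, without overlap of the 2 groups.

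Genes that act on the members were mostly not called within the lines. Over all genes tested, 0.00862% were called in 92.1 and 17.8% in MEL290. Of the 3 mitochondrial porins and the 4 genes of MCL1 protein turnover, 0 were called in either line. No gene of any of these lists had an unadjusted p under 0.05 in 92.1 (limma). In MEL290, 1 apoptosome gene, 1 porin, 0 turnover genes and 3 of the 9 transcription factors described next had. Among all genes, 336 of 11605 tested in 92.1 and 3848 of 11611 in MEL290 had such a p (limma). Of 9 transcription factors that act on BCL2 family genes, 0 were called in 92.1 and 1 in MEL290. This was FOXO3, known as an activator of BCL2L11, at 21.0 and 21.7 FPKM in NC and 15.2 and 16.3 FPKM in A3B OE (-0.41, standard error 0.095, adjusted p = 0.0327, limma), a call that was lost with any 1 library left out (adjusted p between 0.0625 and 0.114). Between the control cells, 2 of the 9 transcription factors were called higher in MEL290 and 5 lower, beside 34.8% and 40.1% of all genes. MITF (-2.05), E2F1 (-1.44), ATF4 (-0.59) and NFKB1 (-0.43) were among those lower, and DDIT3 (1.06) and FOXO3 (1.03) were higher. The NFKB1 call was lost without shCtrl replicate 1 (-0.38, adjusted p = 0.0522) or NC replicate 2 (-0.34, adjusted p = 0.0782). Of the turnover genes, MARCHF5 (1.31), FBXW7 (0.76) and USP9X (0.39) were higher in MEL290, with the calls of FBXW7 and USP9X lost without shCtrl replicate 2 (adjusted p = 0.0638 and 0.0675) or NC replicate 2 (adjusted p = 0.0617 and 0.0707). The porin VDAC3 was lower (-0.33, adjusted p = 0.0046, limma).

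CG dinucleotides near the starts of the members ranged widely. Of the 10 members, 8 had an entry among RefSeq promoters (GRCh38.p14), and CG dinucleotides were counted in the 250 bases before the RefSeq start. For BCL2, BCL2L11 and BID these bases lie inside the gene span given here from GENCODE, and for BCL2 all 250 lie in exons, so their counts are not of DNA before the annotated gene. For BCL2L1 and BAK1 the window holds 26 and 17 exon bases. The median over 27305 genes was 11. PMAIP1 had 36, more than 95.3% of promoters, BCL2L11 34, BID 30, BCL2 24, and BCL2L1 and BAD 17 each. BAK1 had 5, and BCL2A1 had 2, with 84.6% of promoters holding as many or more. The MITF-type letters CATGTG and CACGTG, chosen after the results were known, were searched on both strands. CATGTG, present in 9.54% of all promoters, was found once among the 8, in BCL2A1, and CACGTG, present in 6.49%, in none. A match is a description and not a binding site. The stretches of 3 genes are printed, namely BCL2L1 and BAK1, the members that differed most between the lines in each direction among those with bases outside annotated exons, and BCL2A1, the member at or near 0. Bases inside exons are left off, and CG is in capitals.
BCL2L1, chr20:31723990-31724213, minus strand: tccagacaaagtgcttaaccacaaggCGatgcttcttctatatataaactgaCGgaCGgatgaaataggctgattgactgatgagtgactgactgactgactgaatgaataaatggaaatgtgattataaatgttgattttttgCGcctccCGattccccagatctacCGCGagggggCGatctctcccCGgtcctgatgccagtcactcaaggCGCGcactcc
BAK1, chr6:33580294-33580526, minus strand: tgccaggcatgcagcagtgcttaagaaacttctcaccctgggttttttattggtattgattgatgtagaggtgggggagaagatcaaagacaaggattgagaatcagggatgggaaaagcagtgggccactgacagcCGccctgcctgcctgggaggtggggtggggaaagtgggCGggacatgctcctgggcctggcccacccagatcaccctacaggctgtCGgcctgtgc
BCL2A1, chr15:79971197-79971446, minus strand: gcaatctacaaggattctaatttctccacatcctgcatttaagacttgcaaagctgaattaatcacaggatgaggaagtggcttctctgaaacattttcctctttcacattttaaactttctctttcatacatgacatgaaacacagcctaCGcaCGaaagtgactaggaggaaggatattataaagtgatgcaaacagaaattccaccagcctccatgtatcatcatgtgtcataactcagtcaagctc
The BCL2L1 stretch holds 11 CG dinucleotides in 224 bases, that of BAK1 3 in 233, and that of BCL2A1 2 in 250. The CATGTG of BCL2A1 starts at base 226 of the printed run.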

How the data were processed

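RNA was extracted with Trizol and libraries were made with a NEBNext Ultra kit, per the labels. Paired-end reads had been mapped by the authors with STAR (GRCh38), and FPKM came from Cufflinks with an Ensembl gene set. The deposited files hold 1 FPKM value per symbol and library, already divided by transcript length and mapped fragments, so count tests were not used. The authors' Cuffdiff test needs reads and was not run. Coordinates came from GENCODE release 44 (19033 of 19952 symbols matched).

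On a log2 scale with a pseudocount of 1, genes with at least 1 FPKM in at least 2 libraries of a fit were tested with limma 3.58.1 in R 4.3.3 (moderated variances with a mean trend), p-values were adjusted by Benjamini-Hochberg over all genes tested, and a gene is called below 0.05. Each line was fitted alone. The control cells and the difference of effects used all 8 libraries in 1 fit. The test was also run on simulated data with independent normal noise, which does not show how it performs on these libraries. The members and the gene lists were chosen with earlier results of these data known. All members are named, and from each list up to 6 called genes by size of the difference. BAX, BBC3 and BCL2L2-PABPN1 are named outside this rule, after their values were seen.

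Depth was read from where low values of single-transcript genes pile up, with 200 bases per transcript taken as unable to start a fragment. Only 18.1% to 29.1% of these genes fell within 5% of the peak, so fragment numbers are rough and no counting interval is given. Replicate libraries correlated at r of 0.987 or more and shared no identical value above 0. Alternatives were quantile or upper quartile scaling, no mean trend, a pseudocount of 0.1, 2 other filters, other sets of libraries, a replicate block, and omission of each library in turn. Correction for GC content and length was chosen after seeing the data. MCL1 and BCL2L2 have no entry in the promoter table used. A result from the pathway lists is not reported here.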

Additional observations from a re-analysis of the deposited data

Results flagged for a closer look

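For 2 genes of the pathway lists, neither a member, the difference of effects was called. It is (A3B OE minus NC) minus (shA3B minus shCtrl), on the log2(FPKM + 1) scale. A3B was raised in the first term and lowered in the second, so changes of opposite sign add up. APOBEC3B itself gave 6.55 (limma). Both genes had changes of opposite sign in the 2 terms, and whether A3B acts differently in the lines was not tested. BMF differed by 1.60 (standard error 0.21, adjusted p = 0.0097, limma), as it rose in both A3B OE libraries (1.38) and had a difference of -0.22 with A3B depletion in 92.1 that was not called. The call was lost without A3B OE replicate 1 (1.68, adjusted p = 0.0527) or A3B OE replicate 2 (1.52, adjusted p = 0.0548). BIRC5 differed by 0.95 (standard error 0.11, adjusted p = 0.0079, limma), with 0.87 in MEL290 and -0.078, not called, in 92.1. Its call was lost without A3B OE replicate 1 (0.97, adjusted p = 0.0517).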

How the results depend on the processing

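With 2 libraries per group, the counts of members called in 92.1 (0), between the control cells (7) and for the difference of effects (0) stayed within 1.5 times under every alternative run, with 5 to 7 between the control cells when 1 library was left out. In MEL290 the count of 1 became 0 without the trend, with no filter on low FPKM, with all 8 libraries in 1 fit and with a replicate block, and lay between 0 and 1 with 1 library left out. BCL2L2 kept -0.40 in those 4 fits, with adjusted p of 0.069, 0.0967, 0.126 and 0.069. The replicate numbers were not shown to pair libraries (correlations of same-number deviations of 0.193 in 92.1 and -0.029 in MEL290), and under the block 37 genes were called in 92.1 and 1521 in MEL290, with 0 members in either; it also took the calls of BCL2L12, FOXO3 and TNFRSF10B, as did the fit with no filter (adjusted p = 0.13, 0.0631 and 0.0553). Without the trend BCL2L12 (adjusted p = 0.0564) and TNFRSF10B (adjusted p = 0.0806) lost theirs, and with all 8 libraries in 1 fit FOXO3 (adjusted p = 0.0604) and TNFRSF10B (adjusted p = 0.0786). FAS lost its call there too (adjusted p = 0.137). Between the control cells MCL1 was called under quantile normalization (0.28, adjusted p = 0.0466) and upper quartile scaling (0.31, adjusted p = 0.0286), and PMAIP1 with the GC and length trend removed (-0.41, adjusted p = 0.0399). APOBEC3B lost its call in 92.1 with no filter (adjusted p = 0.343).

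Over all alternatives run for the members, sign changes were seen only for differences that were not called. In 92.1 these were BCL2L2 (0.0097), BAK1 (0.057) and BAD (0.025) with the GC and length trend removed, BAK1 under quantile normalization (0.0086) and upper quartile scaling (0.0083), and PMAIP1 under upper quartile scaling (0.0045). In the difference of effects they were PMAIP1 (0.039) and BCL2L11 (0.013) with the GC and length trend removed. With 1 library left out, the differences in 92.1 ranged from -0.16 to 0.022 for BCL2, -0.13 to 0.15 for BCL2L1, -0.20 to 0.13 for BCL2L2, -0.26 to 0.053 for MCL1, -0.10 to 0.086 for BAK1, -0.13 to 0.10 for PMAIP1 and -0.19 to 0.028 for BAD. In MEL290 they ranged from -0.33 to 0.18 for PMAIP1 and -0.12 to 0.29 for BID. In the difference of effects they ranged from -0.10 to 0.21 for MCL1, -0.32 to 0.19 for PMAIP1 and -0.063 to 0.054 for BCL2L11. The cause was not tested. Low FPKM limits BCL2 in MEL290 and BCL2A1 in both lines.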

Other observations

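For the 5 members whose log2(FPKM + 1) ranged over at least 1 across the 8 libraries, the genes with the most similar pattern were looked up among 9892 genes whose mean level was 4 FPKM or more. The libraries fall into 2 lines, and the line difference dominates these values, so they are a description only. BCL2 was most like ATP2A2 (Pearson r = 0.9996) and TYRP1 (r = 0.9995), a melanocyte pigment enzyme. BCL2L1 was most like ACTN1 (r = 0.999) and B3GNT9 (r = 0.999). For BCL2L2 the 2 genes were PCSK7 (r = 0.993) and YPEL5 (r = 0.985), for BAK1 they were ESRRA (r = 0.998) and REXO1 (r = 0.998), and for BID they were MFSD9 (r = 0.992) and ALAS1 (r = 0.981).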
